A study of Homo sapiens with 14 samples.

Results

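Naïve-only BAF regions at promoters are stretches of chromatin near transcript starts that the BAF chromatin remodelling complex occupied in naïve but not in primed human embryonic stem cells (hESCs), as far as the peak lists show. They were chosen by the positions of BRG1 and BAF155 peaks in both states. The peaks of both subunits were merged within a state, a naïve region was kept if no primed region met it by the 25% rule (25% of either region covered by the other), and its midpoint had to lie within 1 kb of an annotated transcript start on chromosomes 1 to 22 or X. This gave 6630 regions, out of 48305 naïve-only, 77164 naïve and 135672 naïve and primed BAF regions in all. The other 41675 naïve-only regions, called distal below, together with 14496 common and 4439 primed-only promoter regions, served for comparison. Common regions are naïve and primed regions that met by the 25% rule, merged over both states.

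Chromatin immunoprecipitation and sequencing (ChIP-seq) had been performed on WIBR3, an established hESC line, for BRG1, BAF155, BRM and SOX2. Naïve cells were kept in serum-free 5i/L/A medium (kinase inhibitors, LIF and activin A) and primed cells in serum-containing medium with FGF2. Both grew on mouse feeder cells, and the labels describe naïve cultures as converted from primed lines and expanded as polyclonal populations. Each state had 1 library per BAF antibody, so replicate error could not be estimated. Intervals are at the 95% level and cover counting error within these libraries.

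The lists differed in length between the states, which bears on every region called naïve-only. On chromosomes 1 to 22 and X there were 57853 naïve but 15611 primed BRG1 peaks, whereas BAF155 had 62338 naïve and 58352 primed peaks. With BRG1 alone in both states 12397 promoter regions were naïve-only, and with BAF155 alone 5115. The count was 597 with peaks of fold 4 or more and 12553 when sharing asked for 50% of both regions. The BRM lists held 17413 naïve and 167 primed peaks, and the SOX2 lists 1940 and 9290. Read totals were not used here, so where a primed peak is missing the signal did not reach the authors' threshold, which is no measurement of absence.

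BAF complexes use the energy of ATP to slide or evict nucleosomes, and a complex carries either BRG1 (SMARCA4) or BRM (SMARCA2) as its ATPase, built around scaffold subunits such as BAF155 (SMARCC1). At promoters they help to keep the start site accessible to transcription factors and RNA polymerase, and elsewhere they act mostly at enhancers. Naïve hESCs resemble the epiblast before implantation and primed hESCs a later epiblast, and each state relies on its own set of transcription factors, among them KLF and TFAP2 proteins in naïve and SOX and ZIC proteins in primed cells.

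Sequences of 5 of these regions are shown first, all from hg38, plus strand, 5′ to 3′, and free of annotated exon bases. The first set holds a short word that KLF or TFAP2 proteins can recognise, given in capitals, because these words are compared between classes further on. The regions lie at RGS11 (chr16:273608-273759), EVC (chr4:5793718-5793795) and TRIM60 (chr4:165031851-165031998). The capitals mark a KLF word, read on the minus strand, at RGS11 and a TFAP2 word in the others.
RGS11: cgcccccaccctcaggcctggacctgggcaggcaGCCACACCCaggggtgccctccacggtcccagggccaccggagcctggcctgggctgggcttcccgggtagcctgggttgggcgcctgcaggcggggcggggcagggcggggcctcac
EVC: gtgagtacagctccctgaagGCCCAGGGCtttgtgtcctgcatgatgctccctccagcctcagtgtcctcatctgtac
TRIM60: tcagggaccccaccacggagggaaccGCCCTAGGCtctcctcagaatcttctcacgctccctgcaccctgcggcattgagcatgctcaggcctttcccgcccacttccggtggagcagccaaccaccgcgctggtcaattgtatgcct

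The window at CNR2 (chr1:23913565-23913764), picked after its values were seen, is shown because it held a naïve SOX2 peak together with the octamer word, in capitals, to which POU factors bind.
CNR2: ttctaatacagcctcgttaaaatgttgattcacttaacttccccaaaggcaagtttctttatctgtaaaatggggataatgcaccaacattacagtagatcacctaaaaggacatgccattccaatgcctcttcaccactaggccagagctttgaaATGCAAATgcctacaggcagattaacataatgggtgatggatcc

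The last sequence is the 200 bp at the midpoint of the region at SUSD2 (chr22:24180902-24181101), a naïve marker gene that had no primed BAF region at any start. CG dinucleotides, the sites of DNA methylation in mammals, are in capitals, since CpG content separated naïve-only from common promoter regions.
SUSD2: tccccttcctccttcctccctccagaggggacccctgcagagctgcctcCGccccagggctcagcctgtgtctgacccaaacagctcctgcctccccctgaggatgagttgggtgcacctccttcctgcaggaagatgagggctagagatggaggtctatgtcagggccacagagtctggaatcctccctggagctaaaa
There was 1 CG in this window.

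The naïve-only promoter regions were narrow and of modest strength. Widths ran from 158 to 4568 bp with a median of 464 bp, against 415 bp for distal naïve-only, 470 bp for primed-only promoter and 1414 bp for common promoter regions. The common regions were merged over both states, which can only widen them, so part of their width is set by construction. The fold enrichment over input, as the authors' peak caller gave it for the highest BRG1 or BAF155 peak, ran from 1.79 to 7.0 with a median of 2.90. The −log10 q of that peak had a median of 1.99, and 1436 regions (21.7%) reached 3, against 22% of distal and 42.7% of common promoter regions. Positions, widths and strengths come from the peaks that chose the regions and are given as a description.

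Both antibodies contributed to 2893 regions (43.6%, interval 42.4 to 44.8%), BRG1 alone to 1774 (26.8%) and BAF155 alone to 1963 (29.6%). Regions made of both were wider, with a median of 705 bp against 316.5 bp and 338 bp. Where both antibodies had a peak, the fold was higher for BRG1 in 1521 of 2893 regions. The folds come from different antibodies and from the peaks that chose the regions.

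At the limits of the rule, regions at FAM118A, PITRM1 and BCAR1 were kept with 24.7%, 24.7% and 24.8% covered. Those at EIF5A and GUCA1A were left out with 25.1% and 25.2%. At the limit of distance, regions at PLEKHA4, GTF3C6 and TBXAS1 lay 1000 bp from a start and were kept, and those at ENSG00000270914, HSD17B11 and PNPLA1 lay 1000.5, 1001 and 1001.5 bp away and were left out. In all, 237 kept regions overlapped a primed region by less than 25%, and 915 (13.8%) had a primed region within 1 kb. The median gap to the nearest primed region was 8675 bp.

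BRM was called at 940 of the 6630 regions (14.2%, interval 13.3 to 15.0%), against 20.4% of all naïve BAF regions. BRM peaks were not used to choose the regions. The share at distal naïve-only regions was also 14.2% (13.8 to 14.5%), giving an odds ratio of 1.00 (0.929 to 1.08) that did not separate them. With a start inside the region in place of the 1 kb rule, the ratio was 1.57 (1.43 to 1.72). Common promoter regions had BRM at 30.0% (29.2 to 30.7%), an odds ratio of 0.386 (0.357 to 0.417) for naïve-only against common promoters. With every region set to 500 bp the ratio was 0.604 (0.555 to 0.657), so part of the gap moved with width. No primed BRM peak met any of the 6630 regions, which allows a share of up to 0.0556%, from a list of 167 peaks.

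**Figure D1:**
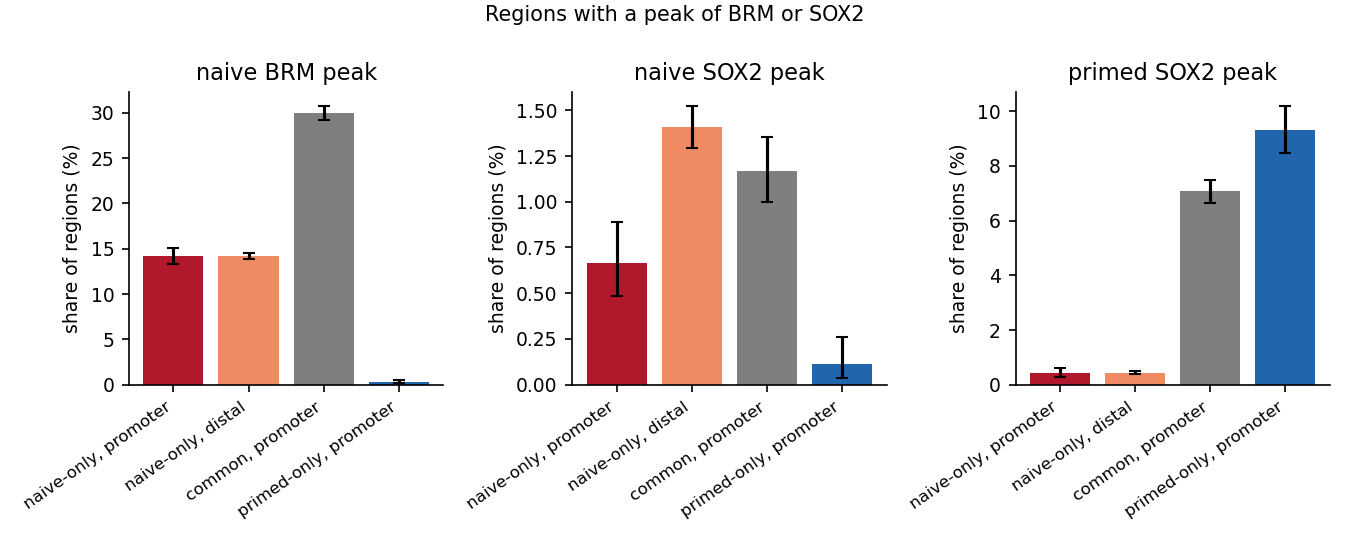
Share of regions (%, linear axes from 0, each panel on its own scale) with a naïve BRM, naïve SOX2 or primed SOX2 peak in 4 classes of BAF regions, with exact 95% intervals. Naïve-only promoter regions had BRM at 14.2%, the same share as distal naïve-only regions, and naïve SOX2 at 0.664%, below the 1.41% of distal ones. Primed-only regions have no naïve BAF region by construction, which sets their low naïve shares.

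Wider regions held BRM more often. Among naïve-only promoter regions the share was 3.91% up to 300 bp, 9.41% from 300 to 500 bp, 14.9% from 500 to 800 bp, 23% from 800 to 1200 bp and 43.2% above that. In the 2 widest groups common promoters no longer had the higher share, with 20.6% and 36.8%. Distal naïve-only regions held BRM at 4.89%, 9.96%, 15.2%, 26.0% and 48.6% in the same groups, at or above the promoter values.

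BRM also went with strength and with the presence of both subunits. It was found at 3.6% of promoter regions with a fold under 2.5, at 7.0% from 2.5 to 3, at 18.2% from 3 to 3.5, at 34.9% from 3.5 to 4 and at 64.8% (153 of 236) from 4. Regions made of BRG1 and BAF155 had BRM at 28.4% (26.7 to 30.1%), those of BRG1 alone at 2.37% and those of BAF155 alone at 3.92%. BRM folds in these regions ran from 1.90 to 5.98 with a median of 3.28. The regions were also chosen anew from BRG1 and BAF155 peaks of both states that passed a threshold. With −log10 q of at least 3 there were 3512 regions, 41.7% with BRM, and with a fold of at least 4 there were 597, 67.0% with BRM. These sets also hold regions whose primed peak fell under the threshold, so they are not subsets of the 6630.

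Some sequence and position features were set against BRM within the naïve-only promoter regions. Regions with a TFAP2 word had BRM at 17.2% and those without at 13.6%, an odds ratio of 1.32 (1.10 to 1.58). The ratio for the KLF word was 1.40 (0.955 to 2.04) and for the SOX word 1.01 (0.837 to 1.21), both with intervals that include 1. CpG-rich regions had BRM less often (odds ratio 0.701, 0.591 to 0.831), as did regions that were more than 50% exonic (0.655, 0.556 to 0.773).

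SOX2, a factor of the pluripotency network, was rarely called at these regions. A naïve SOX2 peak met 44 of them (0.664%, interval 0.483 to 0.890%), against 2.3% of all naïve BAF regions, 1.41% of distal naïve-only and 1.17% of common promoter regions. The odds ratio was 0.468 (0.344 to 0.637) against distal and 0.566 (0.406 to 0.790) against common promoter regions. Of the 44, 39 had both BAF subunits, 15 had BRM (34.1%, 20.5 to 49.9%) and 5 also had a primed SOX2 peak. Their median width was 1013.5 bp, wider than the 464 bp of the whole class. A SOX word was present at the midpoint of 12 and the octamer word at that of 5. With an overlap of 50% of both regions the share fell to 0.121%.

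The naïve SOX2 folds in these regions ran from 4.24 to 16.9 with a median of 6.77. The highest values near a start of a protein-coding gene were at GEMIN5, which encodes a subunit of the SMN complex (SOX2 fold 11.2), C19orf25 (10.5), UGT1A6, a glucuronosyltransferase of detoxification (9.90), CNR2, a cannabinoid receptor of immune cells (9.58), and EPN2, an endocytic adaptor (8.78). At CNR2 all 4 antibodies had a naïve peak, with folds of 3.95 for BRG1, 3.31 for BAF155, 3.46 for BRM and 9.58 for SOX2, and at UGT1A6 likewise, with 2.88, 2.72, 3.04 and 9.90. GEMIN5 (2.89 for BRG1, 2.85 for BAF155), C19orf25 (3.72 and 3.78) and EPN2 (3.58 and 2.81) had no BRM peak.

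A primed SOX2 peak met 28 regions (0.422%, interval 0.281 to 0.610%), against 4.89% of all naïve BAF regions. Common promoter regions had one at 7.07% and primed-only promoter regions at 9.30%. The rule left out regions with primed BAF, so this share is not independent of the choice of regions wherever primed SOX2 and primed BAF were called together. Distal naïve-only regions, chosen the same way, had 0.437% (odds ratio 0.967, 0.649 to 1.44). With an overlap of 50% of both, 0.0754% of the naïve-only promoter regions had one.

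Within 1 kb of a start, the naïve-only regions lay further from it than common ones. The median distance from midpoint to nearest start was 299.5 bp, against 141.25 bp for common and 211 bp for primed-only promoter regions. The start itself was inside the region in 47.3%, against 94.1% of common and 58.6% of primed-only promoter regions. Common regions span both states and were wider, which bears on their share. The share within 200 bp of the start was 38.8%, against 60.5% and 48.3%, and the share beyond 500 bp was 32.6%, against 12.1% and 24.1%. Midpoints fell upstream of the start in 52.3%.

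**Figure D2:**
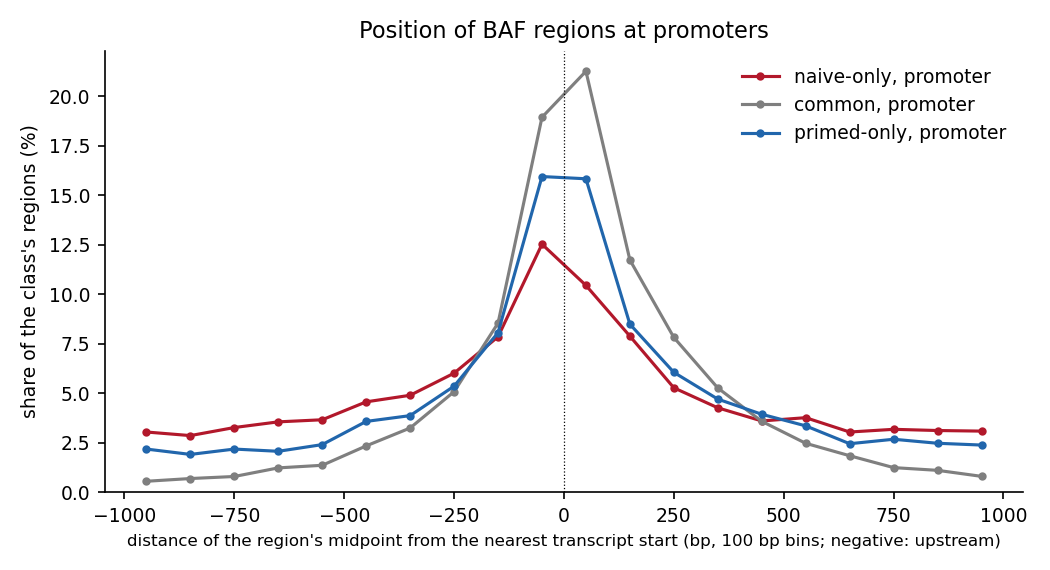
Share of each class's regions (%) by signed distance of the midpoint from the nearest transcript start, in 100 bp bins with upstream negative, for naïve-only, common and primed-only promoter regions. The naïve-only profile peaks just upstream of the start at 12.5% and stays near 3% out to 1 kb, while the common profile peaks at 21.3% just downstream and falls below 1%.

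The gene models under these regions also differed. A start of a protein-coding gene was within 1 kb in 4110 regions (62%, interval 60.8 to 63.2%), against 88.5% of common and 69.6% of primed-only promoter regions. For the start of the canonical transcript of a coding gene the shares were 21.8% (20.8 to 22.8%), 72.6% and 34.2%. This value moved with the way regions were called, reaching 48.8% with peaks of −log10 q of at least 3 and 50.9% with BRG1 alone. No exon base was covered in 32.1% of naïve-only promoter regions, and 11.4% were wholly exonic.

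Counted by gene, 3643 of 19970 protein-coding genes (18.2%) had a naïve-only region at a start, and 1231 (6.16%) had one and no primed BAF region at any start. In all such counts a region is at a start if its midpoint lies within 1 kb of it. When genes with any part of a primed BAF region within 1 kb of a start were left out, 1169 remained (5.85%). Of the 3643 genes, 2030 also had a common region at a start, the same or another, and 382 a primed-only but no common region. In the 1231 genes with no primed BAF region, the naïve-only region lay at the canonical start in 993 (80.7%, interval 78.3 to 82.8%). In the 2030 genes that also had a common region it did so in 280 (13.8%, 12.3 to 15.4%), so there the naïve-only region mostly stood at an alternative start.

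Genes with more annotated starts had more places for such a region. The share with a naïve-only region was 9.65% for genes with 1 or 2 starts, 15.5% with 3 to 5, 19.9% with 6 to 10 and 29.4% with 11 or more. The share with a naïve-only and no primed region fell along the same groups, from 7.60% and 7.56% to 5.81% and 3.34%. Most genes had a single region (3064), 487 had 2, 75 had 3, 13 had 4, 3 had 5 and 1 had 6. CD81, a tetraspanin of the cell surface, had the 6, at its 17 starts. The genes with 5 were CCDC57, EHMT1, a histone H3 lysine methyltransferase, and PLEKHG5, with 20, 52 and 25 starts.

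Transcript starts of other gene types were common among the regions. A processed pseudogene, a retrotransposed copy of a messenger RNA, had its start there with no coding start in 531 regions (8.01%, interval 7.37 to 8.69%), against 0.697% of common and 2.77% of primed-only promoter regions. Of 10007 annotated processed pseudogenes, 555 (5.55%) had a naïve-only region, 130 (1.30%) a common and 137 (1.37%) a primed-only region. A long non-coding RNA start with no coding start accounted for 1440 regions (21.7%), against 9.37% and 23.4%.

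Chromosome 19, rich in genes and in KRAB zinc finger clusters, held 801 of the regions (12.1%, interval 11.3 to 12.9%). It held 6.55% of distal naïve-only, 6.82% of common promoter and 3.65% of primed-only promoter regions, the last an odds ratio of 3.63 (3.05 to 4.31). Outside the numbered zinc finger genes, 413 of 1236 coding genes on chromosome 19 had a naïve-only region (33.4%, 30.8 to 36.1%), against 3142 of 18494 (17.0%) on the other chromosomes. With no primed region at a start the shares were 12.5% and 5.54%. Zinc finger genes accounted for 105 of the 801 regions, so most lay at other genes. BRM was present at 17.1% of the regions on chromosome 19 and 13.8% of the others (odds ratio 1.29, 1.06 to 1.57), and their median widths were 575 and 453 bp.

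Gene lists were then described by how many genes had a naïve-only region at a start and no primed BAF region at any start, the count to be read beside the 6.16% of all coding genes. These counts rest on the BRG1 and BAF155 peaks that chose the regions, so they are a description. Genes characteristic of naïve cells and of the early embryo had 12 of 32 (37.5%, interval 21.1 to 56.3%). The 12 were ALPG, ALPP, DPPA2, DPPA5, KHDC1L, KHDC3L, KLF17, NLRP7, OLAH, SUSD2, TRIM60 and ZFP42. A further 6, among them ESRRB, CPT1A and FGF4, had a naïve-only region together with a primed BAF region. The naïve factors KLF4, KLF5, TFAP2C, TFCP2L1 and TBX3 had a common region and no naïve-only one, as did DPPA3, IL6ST and NODAL. DNMT3L, DPPA4, DUXA, GDF3, HORMAD1 and NLRP2 had no BAF region with its midpoint within 1 kb of a start. A naïve-only region did cover a start of NLRP2, which counted when the rule asked for a start inside the region.

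DPPA2, which encodes a chromatin factor of early embryos, had the fullest set of peaks on the naïve list (chr3:109315571-109318016). Its naïve folds were 3.68 for BRG1, 3.63 for BAF155, 3.48 for BRM and 5.11 for SOX2, and the nearest primed BAF region was 16697 bp away. SUSD2, a surface protein used to sort naïve cells, had 3.19, 3.17 and 3.11 for BRG1, BAF155 and BRM (chr22:24180313-24181690), and TRIM60 had 2.73, 2.45 and 2.90 (chr4:165030127-165033774). These 3, of the 18 genes of the list with a naïve-only region, were the only ones where it had BRM. The share over all naïve-only promoter regions was 14.2%.

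The other naïve genes had BAF peaks without BRM. At ALPP, an alkaline phosphatase of placenta, the region of highest fold had BRG1 alone (3.76), was 96.0% exonic, and 70.4% of the 32-base words in its window occur more than once in the genome. Of the 3 naïve-only regions at OLAH, a thioesterase, the one of highest fold had BAF155 alone (3.27). ZFP42, the zinc finger marker also called REX1, had 2.96 and 3.16 for BRG1 and BAF155, with a primed BAF region 889 bp away. KLF17, a naïve transcription factor, had 3.02 and 2.63. At ESRRB, an orphan nuclear receptor, the region had 3.01 and 3.48 and fell by an alternative start.

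**Figure D3:**
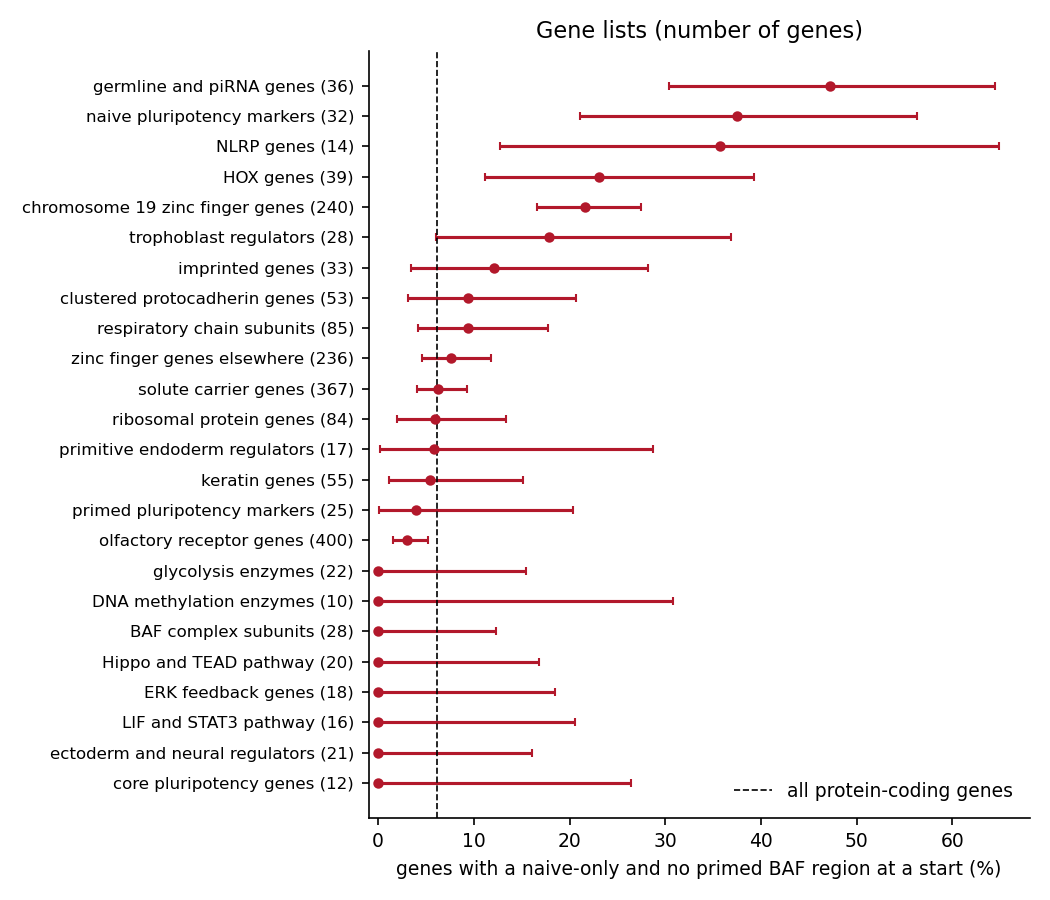
Percentage of genes in each of 24 lists (number of genes in brackets) with a naïve-only and no primed BAF region at a transcript start, with exact 95% intervals, and the share over all protein-coding genes as a dashed line at 6.16%. Germline and piRNA genes (47.2%) and naïve markers (37.5%) stand at the top, and 8 lists, core pluripotency genes among them, are at 0.

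Germline and piRNA genes, which are silenced by DNA methylation in most somatic cells, had 17 of 36 (47.2%, interval 30.4 to 64.5%). They included RNF212, a meiotic crossover factor (BRG1 3.22, BAF155 3.38), TEX11, a meiotic gene on the X chromosome (BAF155 3.27), MOV10L1, a piRNA helicase (3.24 and 2.87), and STK31 (2.95 and 3.08). PIWIL2, a PIWI protein, had BRG1 2.75, BAF155 2.99 and BRM 2.96. It was the only one of the 20 list genes with a naïve-only region where that region had BRM. Of all naïve-only promoter regions, 14.2% had BRM. The peaks at the germline and piRNA genes were weak. Only RNF212 and STK31 were left with −log10 q of at least 3, when the share of all coding genes was 10.7%. Of the 12 naïve genes, ALPG, ALPP, DPPA2, OLAH, SUSD2 and ZFP42 still counted under that threshold, and ESRRB counted in addition. The threshold was applied to the peaks of both states. The naïve list then had 7 of 32 (21.9%, interval 9.28 to 40.0%), an interval that includes the 10.7% of all coding genes.

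NLRP genes, which include innate immune sensors and maternal-effect genes, had 5 of 14 (35.7%, interval 12.8 to 64.9%). None of the 5 had BRM, too few genes to set against the 14.2% of all naïve-only promoter regions. NLRP1 had BAF155 3.27, NLRP12 had 3.15 and 3.21, and NLRP4 and NLRP11 shared a region with BRG1 3.19. Of these, NLRP12 was left with −log10 q of at least 3.

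HOX genes, which pattern the body axis and are silent in pluripotent cells, had 9 of 39 (23.1%, interval 11.1 to 39.3%). HOXC12 had 2.82 for BRG1 and 3.89 for BAF155, HOXC9 3.75 and 3.59, and HOXB8 3.31 and 3.71. HOXC10 had BRG1 3.77 and BRM 3.23 but no BAF155 peak. These regions were largely exonic, at 98.5%, 78.5%, 88.0% and 80.1% for HOXC12, HOXC9, HOXB8 and HOXC10. With BRG1 alone 33 of 39 HOX genes counted, when the share of all coding genes was 33.9%.

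Numbered zinc finger genes on chromosome 19, mostly KRAB repressors, had 52 of 240 (21.7%, interval 16.6 to 27.4%), and those elsewhere 18 of 236 (7.63%, 4.58 to 11.8%). The other coding genes of chromosome 19 had 12.5% (10.7 to 14.4%). ZNF414 had 3.29 for BRG1, 3.64 for BAF155 and 4.62 for BRM. ZNF557 had 2.67 and 3.63 without BRM, and ZNF320, whose BAF155 fold of 4.62 was the highest of the list, also had a common region at a start. At 11 of the 88 zinc finger genes with a naïve-only region that region had BRM, near the 14.2% of all naïve-only promoter regions.

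Trophoblast regulators had 5 of 28 (17.9%, interval 6.06 to 36.9%), an interval that includes the 6.16% of all coding genes. The 5 were GCM1, HAND1, XAGE2 and the syncytin genes ERVFRD-1 and ERVW-1. GCM1, a driver of syncytiotrophoblast fate, had BAF155 3.24 and no other peak. HAND1 had 2.80 for BRG1, 2.82 for BAF155 and 3.23 for BRM, with a primed BAF region 611 bp away. ERVFRD-1 had 2.71, 2.76 and 3.12, and XAGE2 had BRG1 3.07. GATA2 had the highest fold on the list, 3.83 for BRG1 and 3.34 for BAF155, and also had a common region. With −log10 q of at least 3 none of these 5 genes was left and the 2 that counted were KRT18 and OVOL1. That is 7.14% of the list, beside 10.7% of all coding genes.

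Imprinted genes had 4 of 33 (12.1%, 3.40 to 28.2%), an interval that also includes the 6.16% of all coding genes. PEG3 and ZIM2, whose starts lie side by side, shared a region with 3.25 for BRG1 and 3.47 for BAF155, 202510 bp from the nearest primed BAF region. IGF2 (BRG1 3.61) and H19 (2.92, 2.91 and BRM 3.49) each also had a common region.

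Housekeeping lists lay near the background share. Respiratory chain subunits had 8 of 85 (9.41%), ribosomal protein genes 5 of 84 (5.95%) and solute carriers 23 of 367 (6.27%). Large tissue-specific families were also near it or below, with 5 of 53 clustered protocadherins (9.43%), 3 of 55 keratins (5.45%) and 12 of 400 olfactory receptors (3.00%).

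Several lists of signalling, pluripotency and housekeeping genes held no gene with a naïve-only and no primed region. None counted among the 12 core pluripotency, 18 ERK feedback, 16 LIF and STAT3, 20 Hippo and TEAD, 21 ectoderm and neural, 28 BAF subunit, 10 DNA methylation or 22 glycolysis genes, which allows shares up to 12.3% for the BAF subunits and up to 30.8% for the shortest list. A common region was present at 63.2% of all coding genes, at 7 of the 12 core pluripotency genes (58.3%, 27.7 to 84.8%), and at all 16 LIF and STAT3, all 20 Hippo and TEAD and all 28 BAF subunit genes. Within these lists IL6R, a cytokine receptor, had a strong naïve-only region at an alternative start, with 4.39 for BRG1, 3.55 for BAF155 and 4.12 for BRM. DNMT1, the maintenance DNA methyltransferase, had BAF155 2.92 with BRM 5.36. Of 25 primed markers only SLC7A3, an amino acid transporter, counted (3.23 and 3.59), and of 17 primitive endoderm genes only CTSE.

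The 10 strongest naïve-only regions at coding genes lay, with 1 exception, at genes that also had a primed BAF region at a start. Most regions at coding genes did so: of all 4110 with a coding start, 1343 lay at a coding gene with no primed BAF region at any start. The highest folds were at WRAP73, a centrosomal protein, with 6.92 for BRG1, 5.84 for BAF155 and 4.86 for BRM (chr1:3639331-3640980), and at PDGFD, a growth factor, with 4.63, 6.12 and 5.02 (chr11:104036767-104037343, wholly exonic). MTOR, the growth kinase, followed with 5.81, 4.47 and 5.78 (chr1:11194437-11194938), and ADAP1 with 4.84, 5.80 and 5.92 over the widest region of the class, 4568 bp (chr7:925788-930355). The exception was ASB5, a cofactor of ubiquitin ligases (5.62, 4.38 and 3.24), with no primed BAF region at any start.

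The remaining 5 of the 10 had similar profiles. ST8SIA1, a sialyltransferase, had 5.60, 4.55 and 2.94 for BRG1, BAF155 and BRM, and RGS11, a regulator of G protein signalling, had 4.27, 5.47 and 3.63. EP300, the histone acetyltransferase, had 4.11, 5.37 and 5.13, LYPD5 had 4.90, 5.28 and 5.55, and EVC, a cilium protein, had 5.20, 3.19 and 3.72. BRM was called at all 10, and naïve SOX2 at none. Among naïve-only promoter regions with a fold from 4, 64.8% had BRM, and 0.664% of all such regions had naïve SOX2. The 5 highest BRM folds were at ADAP1, MTOR, LYPD5, DNMT1 and EP300.

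In base composition, naïve-only promoter regions resembled primed-only ones and not common promoters. Median GC of the 200 bp at the midpoint was 54.5%, against 53.5% for primed-only, 49.0% for distal naïve-only and 68.0% for common promoter regions, and 66.5% at the canonical starts of coding genes. A CpG-rich window (observed to expected CpG of at least 0.6 and GC of at least 50%) was found in 25.4% (interval 24.4 to 26.5%), against 27.2%, 7.22% and 72.1% in the same order and 67.9% at canonical starts. The low CpG content of the SUSD2 window printed above was thus the more frequent case.

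13 short words known from transcription factor binding were counted on both strands of these windows. The KLF word (GGGTGTGGC or GGGCGTGGC) was in 2.76% of naïve-only promoter windows (interval 2.38 to 3.18%) and in 0.833% of primed-only ones, an odds ratio of 3.38 (2.37 to 4.82). Stratified on GC content the ratio was 3.17. At canonical coding starts the share was 2.78%. Against common promoters the ratio was 1.35 (1.12 to 1.62), and 2.08 after GC stratification, but 1.03 (0.901 to 1.17) in 500 bp windows. Against distal naïve-only regions it was 1.45 (1.23 to 1.70) but 1.02 after stratification.

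The TFAP2 word (GCCNNNGGC) was in 15.2% of windows, against 11% of primed-only (odds ratio 1.45, 1.29 to 1.63), 9.94% of distal and 26.7% of common promoter windows and 23.7% at canonical starts. After GC stratification the ratio against primed-only windows was 1.38, that against distal windows 1.01, and that against common promoters turned from 0.492 to 1.13. The SP word (GGGCGG), a GC box that shares its opening letters with a KLF word, was in 22.1%, against 20.1% of primed-only (odds ratio 1.13, 1.03 to 1.24, but 1.03, 0.926 to 1.15, after GC stratification), 52.3% of common promoter and 53.5% of canonical start windows.

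Of the words linked to primed cells, those for SOX and ZIC were less frequent than in primed-only windows, which did not hold against every other class. The SOX word (CATTGT or CTTTGT) was in 17.1% of naïve-only promoter windows and 25.6% of primed-only ones (odds ratio 0.597, 0.544 to 0.655, and 0.629 after GC stratification), with 23.2% of distal and 11.3% of canonical start windows. The ZIC word (CCTGCTG) was in 8.76% against 11.4% (odds ratio 0.750, 0.661 to 0.850) and 8.14% at canonical starts. Against distal windows the ratio was 0.682 (0.638 to 0.730) for the SOX word and 1.30 (1.19 to 1.43) for the ZIC word, the latter 0.955 after stratification. Against common promoters the ratios were 1.68 (1.55 to 1.82) for SOX, which turned to 0.974 after stratification, and 1.14 (1.03 to 1.27) for ZIC. The octamer word (ATGCAAAT) was in 1.30% against 1.67%, with an interval of the ratio, 0.567 to 1.06, that includes 1, and in 0.764% of canonical starts. In 500 bp windows the octamer ratio against primed-only regions was 0.751 (0.610 to 0.925), and after GC stratification 0.829 (0.606 to 1.13). Without windows of 50% or more repeated words it was 0.835 (0.609 to 1.14).

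**Figure D4:**
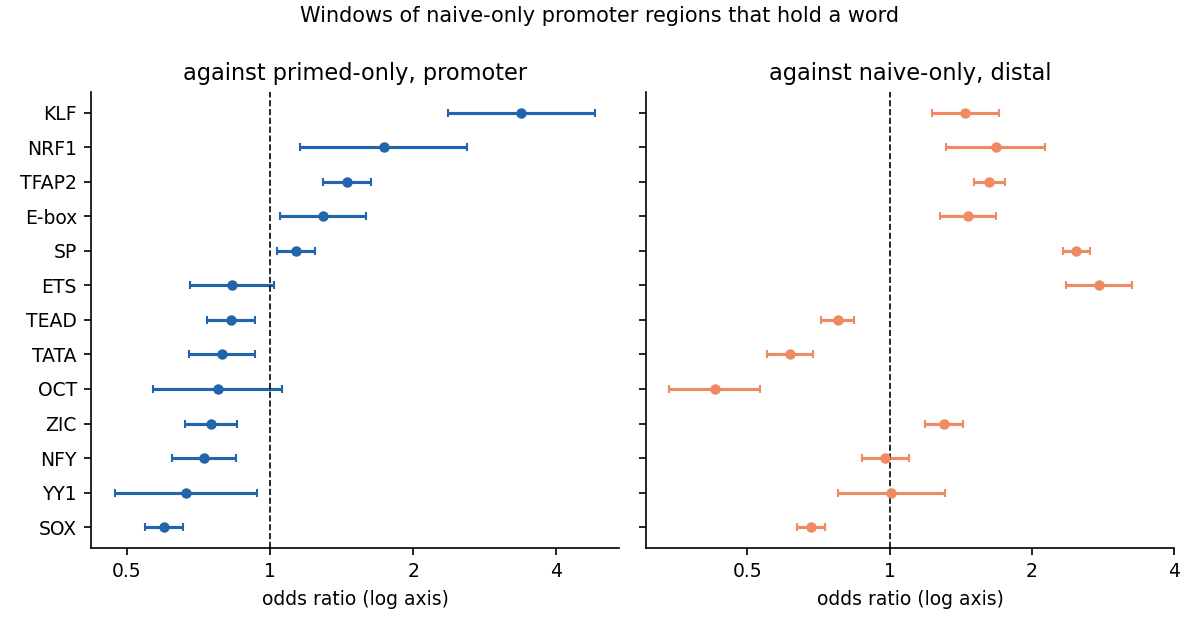
Odds ratios (log axis, points) with 95% intervals (bars) for the presence of 13 words in 200 bp windows of naïve-only promoter regions, against primed-only promoter regions (left) and distal naïve-only regions (right). The KLF word has the highest ratio against primed-only windows, 3.38, and the SOX word the lowest, 0.597.

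Among general promoter words, NRF1 (GCATGCGC, 1.28% against 0.743% of primed-only windows, odds ratio 1.73, 1.16 to 2.60) and the E-box (CACGTG, 4.01% against 3.13%, 1.29, 1.05 to 1.59) were more frequent than in primed-only windows. After GC stratification the interval for the E-box included 1 (1.20, 0.971 to 1.48), as did that for NRF1 without windows of 50% or more repeated words (1.5, 0.977 to 2.32). Their shares at canonical starts were 2.91% and 5.66%. NFY (CCAATC, ratio 0.726), YY1 (AAGATGGC, 0.666), TEAD (GGAATG, 0.827) and the TATA box (read as TATAAA, 0.792) were less frequent, with 12.4%, 3.76%, 6.43% and 6.67% at canonical starts. The TATA ratio turned to 1.03 (0.866 to 1.21) after GC stratification, and that of YY1 had an interval including 1 in 500 bp windows (0.806, 0.645 to 1.01). ETS (CCGGAAG) was in 3.32% against 11.2% at canonical starts, and its ratio against primed-only windows, 0.831, had an interval that includes 1 (0.679 to 1.02). That ratio was 0.772 (0.629 to 0.948) after GC stratification and 0.853 (0.743 to 0.980) in 500 bp windows. Without windows of 50% or more repeated words it was 0.868 (0.705 to 1.07).

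Repeated sequence set the naïve-only regions apart from both other promoter classes. In 747 windows (11.3%, interval 10.5 to 12.1%) at least 50% of the 32-base words occurred more than once in hg38, against 2.25% of primed-only and 2.19% of common promoter windows, with odds ratios of 5.51 (4.46 to 6.81) and 5.68 (4.96 to 6.50). Distal naïve-only windows had 15.2%. The share was 15.6% in regions at processed pseudogenes, 8.83% in those with a coding start, 11.2% on chromosome 19, and 9.68% with and 11.5% without BRM. On the naïve marker list it covered ALPP (70.4% of words repeated) and KHDC1L (79.9%), whereas no word was repeated at SUSD2, KLF17, TRIM60, FGF4, KHDC3L or MAEL.

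**Figure D5:**
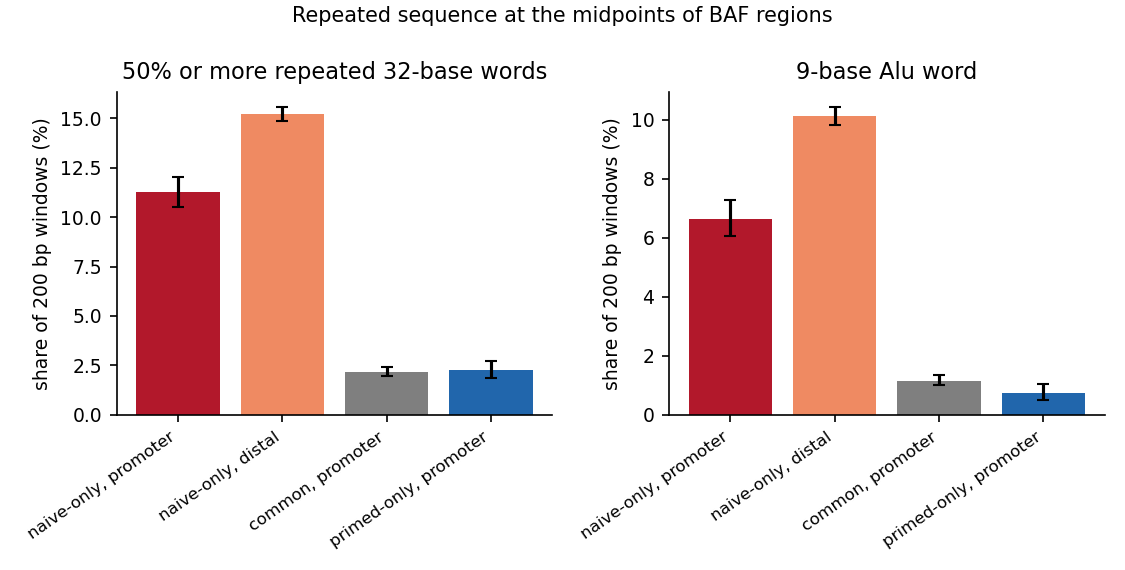
Share of 200 bp midpoint windows (%, linear axes from 0) with at least 50% repeated 32-base words (left) or with the 9-base Alu word (right), by class of BAF region, with exact 95% intervals. Naïve-only promoter regions stand at 11.3% and 6.65%, above both other promoter classes and below distal naïve-only regions.

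Alu elements are short interspersed repeats of primates, present in very many copies and often near genes. The 9-base word GGGATTACA of the Alu consensus, chosen after the windows had been seen, was in 441 windows (6.65%, interval 6.06 to 7.28%). It was in 0.743% of primed-only and 1.16% of common promoter windows, with odds ratios of 9.51 (6.67 to 13.6) and 6.08 (5.08 to 7.28), and in 10.1% of distal naïve-only windows and 0.126% of canonical coding starts. The share was 6.60% with and 6.66% without BRM. Reads from repeated sequence can map to several places, and the part of mapping in these shares was not tested.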

How the data were processed

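ChIP-seq was performed by the authors in WIBR3 hESCs of 2 states with 4 antibodies, and 14 samples were listed, of which 4 are inputs not used here. Per the methods of the study and the submitters' processing notes, reads were trimmed, mapped to hg38 with Bowtie2 2.3.4 and deduplicated (SAMtools 0.1.19 for single-end reads), and MACS2 called peaks against input, broad for BRG1, BAF155 and BRM and narrow for SOX2. The BAF libraries were single-end and the SOX2 libraries paired-end, sequenced in different facilities. The deposited lists give peak positions and, except for primed BRM and the repeat SOX2 lists, the authors' fold enrichment over input (a linear ratio), −log10 of the p-value and q-value, and a score. Both SOX2 lists of a state had identical coordinates and were counted as 1 sample.

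Peaks were merged and intersected with custom Python code, with an overlap of 25% of either region as in the study. The lists used here gave more naïve and more primed BAF regions than the study reports. The naïve-only regions are therefore not the study's own set of peaks, and the reason for the difference was not tested. On simulated peaks this code gave the same regions as bedtools 2.31.1. Of 222964 peaks, 0 ended past an hg38 chromosome. Transcript starts (218307) and exons came from GENCODE release 44, and chromosome Y was left out. BRM and SOX2 overlap followed the same rule. Shares carry Clopper-Pearson and odds ratios Woolf 95% intervals (0.5 added where a count was 0), computed with scipy 1.17.1 in Python 3.11.15, and GC strata were combined by Mantel-Haenszel over 10 bins. The interval code was checked on known answers. The lists themselves carry no read depth, and the read totals that the study states were not used here. No p-value was computed, since regions are not replicates. Intervals treat regions as independent, which neighbouring regions are not.

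The members, the 24 gene lists and the words were chosen with earlier results of these data known. Named genes were up to 4 of highest fold in each list, the 10 of highest BRG1 or BAF155 fold, the 5 of highest BRM and of highest SOX2 fold, those with most regions and those nearest each threshold. The remaining genes on the naïve, trophoblast and germline lists that are named, the Alu word and the sequences at CNR2 and SUSD2 were chosen after their values were seen. Sequences were read from the hg38 FASTA. Regions on chromosome 8 were not considered for printing. A few genes and windows that these rules pick are not reported here.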

Additional observations from a re-analysis of the deposited data

How the results depend on the processing

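The number of naïve-only promoter regions (6630) lay between 4468 and 8397 under 6 alternatives, and was 3512 with −log10 q of at least 3, 597 with a fold of at least 4, 12397 with BRG1 alone, 12553 with an overlap of 50% of both, 4110 with coding starts alone, 3173 with a start inside the region and 12572 with starts within 2.5 kb. Coding genes with such a region and no primed one (1231) numbered 2137, 411 and 6777 with −log10 q of at least 3, a fold of at least 4 and BRG1 alone. In the order −log10 q of at least 3, fold of at least 4, BAF155 alone, equal numbers of top peaks, 50% of both and start inside, the BRM share (14.2%) was 41.7%, 67.0%, 18.0%, 19.1%, 18.2% and 20.0%, with 20.8% for BRG1 alone, and the BRM odds ratio against common promoters (0.386) was 0.538, 0.181, 0.457, 0.477, 0.450 and 0.559, with 0.604 for 500 bp regions. Against distal regions (1.00) it was 1.29, 1.14 and 1.57 with a fold of at least 4, 50% of both and a start inside. The share at canonical coding starts (21.8%) was 48.8%, 41.5%, 23.5%, 23.3%, 42.3% and 29.1% in that same order, 50.9% with BRG1 alone, 35.2% with coding starts, 18.7% with no primed peak within 1 kb, 29.0% with 25% of both, 20.5% with any 1 bp, 11.5% and 26.1% with starts within 2.5 kb and 500 bp, and 23% without windows of 50% or more repeated words, an alternative added after seeing the data. With 25% and 50% of both, naïve SOX2 fell to 0.362% and 0.121% and primed SOX2 to 0.181% and 0.0754%, and regions of both subunits were 27.2% with 50% of both. Stratifying on GC left 3 of 13 words more frequent than in primed-only windows (KLF, TFAP2 and NRF1), from 5 (also SP and the E-box), and turned the direction for OCT (0.702), SOX (0.974), TATA (0.884) and TFAP2 (1.13) against common promoters, TATA against primed-only promoters (1.03) and ZIC against distal regions (0.955). Median GC stayed between 53.4% and 56.0%. The cause of these shifts was not tested. Among 24 gene lists, 16 counts moved with −log10 q of at least 3 and 20 with BRG1 alone. Leaving out a replicate was not possible with 1 library per BAF antibody and state, and repeat-masked bases could not be left out because the reference used here carries no masking. No paired analysis was possible because the BAF groups have 1 library each and the SOX2 lists of a state are identical.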
